A study of Mus musculus with 3 samples.

Results

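The 10 genes described here encode the core of the BCL2 family, the proteins that set whether a cell keeps or loses the outer membrane of its mitochondria. They were chosen by gene symbol: the pro-survival genes Bcl2, Bcl2l1 and Mcl1, the effectors Bax and Bak1, and the BH3-only genes Bcl2l11, Bbc3, Pmaip1, Bid and Bad. All 10 were found, each in 1 row, among 23282 gene rows, and all 10 were among the 12770 rows with enough reads to be tested. The cells were CD4 T cells isolated from the spleens and lymph nodes of mice of the C57BL/6 strain, described by the study as young and female unless stated otherwise, and no genetic change was named for them. They were activated in vitro with antibodies to CD3 and CD28 at 2 µg/ml and cultured for 72 h in 1 of 3 media. Complete medium (CM) was RPMI-1640 with serum, dialyzed medium (DM) was RPMI without amino acids plus dialyzed serum, and DM+Met was DM with 30 µM methionine. Activation was therefore shared by all groups, no unstimulated cells were analysed here, and DM differed from CM in every amino acid of the base medium and in the small molecules that dialysis removes. Each medium was represented by 2 libraries, taken as independent samples because the study describes them so. The labels do not say what the pair of files of a medium is, and if they are technical repeats the p-values measure only technical spread.

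In the mitochondrial route to apoptosis, BAX and BAK form pores in the outer membrane through which cytochrome c leaves to switch on caspases. BCL2, BCL-XL (from Bcl2l1) and MCL1 hold them in check, and the BH3-only proteins BIM (Bcl2l11), PUMA (Bbc3), NOXA (Pmaip1), BID and BAD either neutralize the pro-survival proteins or activate the effectors directly. In T cells, BCL2 is sustained by interleukin-7 in resting cells, BCL-XL is induced by CD28 co-stimulation, and BIM drives the death of activated cells when growth factor is withdrawn. Much of the family's control acts on the proteins, through cleavage of BID, phosphorylation of BAD and rapid turnover of MCL1 and NOXA, and RNA counts do not measure it.

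The libraries held 8504743 to 12377296 reads. Values are CPM, read counts relative to library size after the authors' TMM scaling, and tests were run on log2(CPM + 1). The 45S ribosomal RNA precursor row Rn45s took 31.04 to 32.92% of reads in CM, 37.2 to 38.3% in DM and 15.47 to 20.06% in DM+Met. The DM libraries were the least alike pair (Pearson r = 0.919 across tested rows, against 0.938 in CM and 0.973 in DM+Met, where rows are not independent replicates). The labelled cell type was checked by marker genes: Cd4 had 1584 to 3312 reads in every library, and the 6 T cell markers found summed to 1320 and 1370 CPM in CM, 1350 and 1300 in DM, and 1350 and 1460 with methionine. Single markers still differed. In DM against CM, Cd3g stood at 0.72 and Cd28 at -0.53 on the log2 scale (limma adjusted p = 0.0349 and 0.049). These 2 were 33.3% of the 6, beside 16.9% of all rows below an adjusted p of 0.05, and none was below it in DM+Met against CM.

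In mouse genome build GRCm38 (mm10), with GENCODE vM21 gene models, Bcl2 lies on the minus strand at chr1:106538178-106714274, Mcl1 on the plus strand at chr3:95658788-95663176, and Bak1 on the minus strand at chr17:27019810-27029009. These are the members on which the results below turn, since Bcl2 and Mcl1 passed a test and Bak1 came nearest to one among the death genes. The 3′-end library kit places reads near the poly(A) end of a transcript, so a read from these genes falls mostly in the last exon. The last exon of Bcl2, chr1:106538178-106543398, is crossed on the opposite strand by exons of D630008O14Rik, and the 3′ ends of Bid and its neighbour Bcl2l13 overlap tail to tail over 913 bases at chr6:120891930-120892842. Whether the authors' counting used strand is not given in the sources used here, so reads of such partners cannot be told apart. Bax, Bak1 and Bad also overlap annotated neighbours (Gm45808, Ggnbp1 and Gpr137), but not in their last exons. Promoters of 9 of the 10 members were taken from the RefSeq table of GRCm38.p6. They came in 15 entries of 300 bases, from 250 bases before to 50 after the annotated start. Pmaip1 was left out of the promoter search, so the member counts of motifs below do not cover it. Those of the 3 members named above are shown 5′ to 3′ on the strand of the gene, with GC-boxes (GGGCGG on either strand) in capitals, because the number of boxes differs among them: 7 in Bcl2, 1 in Mcl1 and 0 in Bak1. The Bcl2 entry is chr1:106714241-106714540, the Mcl1 entry chr3:95658471-95658770 and the Bak1 entry chr17:27028578-27028877.
Bcl2: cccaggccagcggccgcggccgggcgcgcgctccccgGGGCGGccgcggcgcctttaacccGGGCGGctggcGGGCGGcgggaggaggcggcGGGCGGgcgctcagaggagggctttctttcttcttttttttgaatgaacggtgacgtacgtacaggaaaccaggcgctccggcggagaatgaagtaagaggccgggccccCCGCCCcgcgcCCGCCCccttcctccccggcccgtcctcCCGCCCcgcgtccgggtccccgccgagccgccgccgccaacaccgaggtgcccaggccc
Mcl1: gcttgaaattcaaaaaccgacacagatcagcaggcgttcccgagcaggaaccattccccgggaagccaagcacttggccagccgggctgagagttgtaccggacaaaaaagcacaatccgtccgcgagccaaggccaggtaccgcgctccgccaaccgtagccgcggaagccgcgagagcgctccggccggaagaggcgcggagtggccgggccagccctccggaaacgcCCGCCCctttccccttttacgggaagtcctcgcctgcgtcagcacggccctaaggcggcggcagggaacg
Bak1: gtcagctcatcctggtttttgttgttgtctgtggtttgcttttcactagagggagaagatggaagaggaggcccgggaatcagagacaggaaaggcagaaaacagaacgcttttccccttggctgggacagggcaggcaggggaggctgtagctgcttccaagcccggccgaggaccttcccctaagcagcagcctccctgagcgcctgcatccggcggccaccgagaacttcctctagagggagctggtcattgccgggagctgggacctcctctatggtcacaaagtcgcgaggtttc
A GC-box was present in 10 of the 15 member promoters and in 35.7% of all 32851 promoters of the table. Some members had more than 1 entry, and entries of Bbc3 overlap in sequence and share GC-boxes, so the 15 are not independent. Of 7 further motifs searched on both strands, FOXO (TGTTTAC) was present in 2 member promoters, 1 of Bcl2l11 and 1 of Bbc3, and in 3.65% of all promoters. E-box (CACGTG) was present in 2 and in 7.15%, NFAT (GGAAAA) in 3 and in 23.4%, and CCAAT in 4 and in 37.4%. None of the 15 member promoters held CRE (TGACGTCA), STAT (TTCNNNGAA) or E2F (TTTCCCGC), which were present in 1.79%, 8.3% and 1.07% of all promoters. None of the 8 motifs contains another, overlapping matches were each counted, and a match or its absence is a description of these letters only.

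The first question was how these genes differed between cells in amino acid-poor DM and cells in CM. Bcl2 rose 2.42-fold in DM, and no other member passed the test in this comparison. Mcl1 was at 1.27 times and the effector gene Bak1 at 0.482 times its CM level, both short of the threshold. No BH3-only gene passed the test in any comparison. A second question was what 30 µM methionine added to DM: no member passed the test between DM+Met and DM, while against CM both Bcl2 (3.25-fold) and Mcl1 (1.43-fold) rose in DM+Met. With limma and Benjamini-Hochberg adjustment over all tested rows, 1 of 10 members was called in DM against CM, where 16.9% of all rows were called, 7.8% higher and 9.07% lower. For DM+Met against CM, 2 of 10 were called, beside 15.3% of all rows (6.92% higher and 8.36% lower), so the share of members called was 10% and 20% and lay on either side of that of all rows. Between DM+Met and DM, 0 of 10 were called, beside 0.0548% of all rows (7 rows, 0.0392% higher and 0.0157% lower). Bcl2 was the 1 member of 10 with an unadjusted limma p under 0.05 there, beside 9.69% of all rows. A count-weighted fit (limma-voom) on the recovered reads likewise called 0 members in that comparison.

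**Figure D1:**
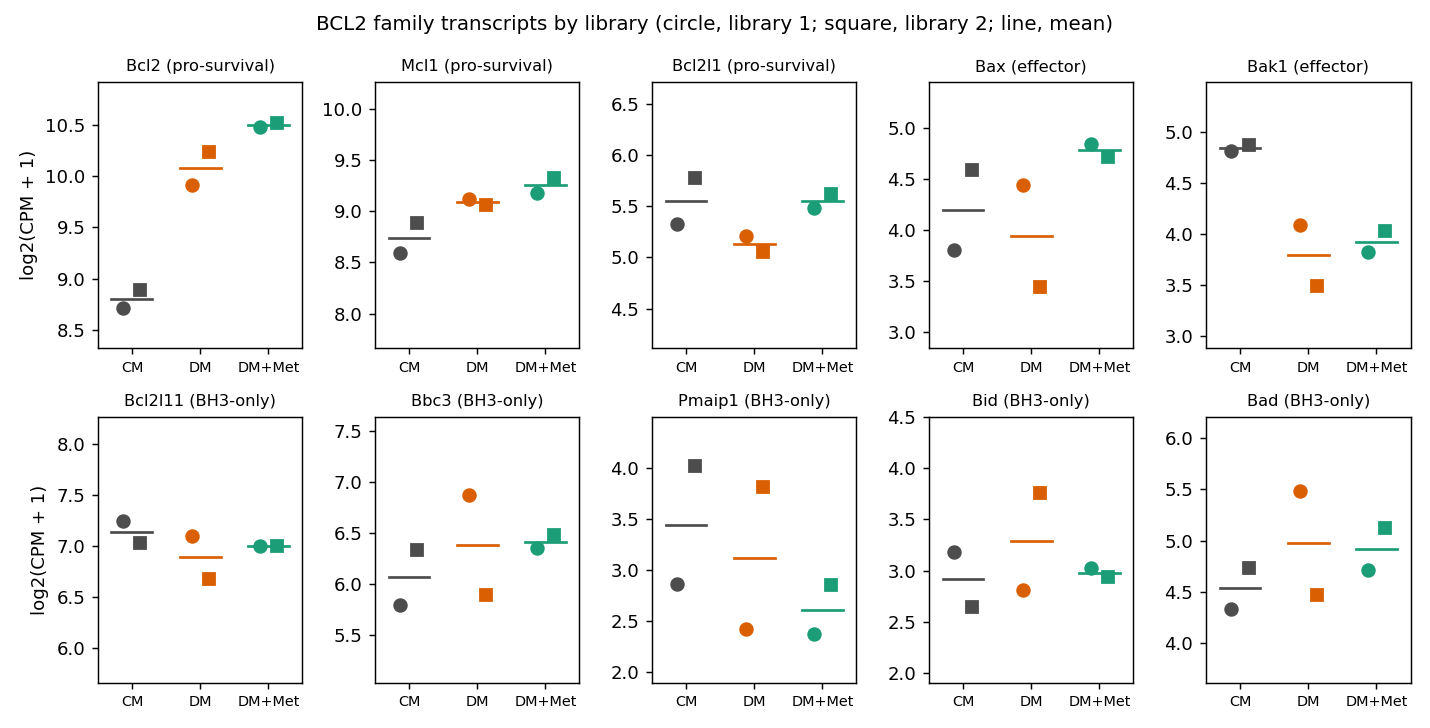
Level of each BCL2 family gene, log2(CPM + 1) on the vertical axis, in the 2 libraries of CM, DM and DM+Met; circles are library 1, squares library 2, lines the mean, and every panel spans the same height. Bcl2 lies at 8.80 in CM, 10.08 in DM and 10.50 with methionine, Bak1 is highest in CM, and the DM pair lies far apart for Bbc3, Pmaip1, Bax, Bid and Bad.

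Bcl2, the founding pro-survival gene, was read at 419 and 473 CPM in CM, 966 and 1210 CPM in DM, and 1430 and 1470 CPM with methionine. The 3 media did not overlap, and their order was CM, DM, DM+Met. Counts were deep, from 3676 to 17558 reads per library. The log2 means were 8.80 ± 0.13 in CM (SD, n = 2), 10.08 ± 0.23 in DM and 10.50 ± 0.03 in DM+Met. The rise in DM over CM was 1.28 (SE 0.15, 95% interval 0.94 to 1.61, limma adjusted p = 0.000889). In DM+Met over CM it was 1.70 (95% interval 1.37 to 2.04, adjusted p = 0.000151). Both calls held under all 18 alternative settings, including the omission of each library in turn, with values of 1.11 to 1.44 in DM and 1.61 to 2.10 in DM+Met. The step from DM to DM+Met was 0.42 (95% interval 0.09 to 0.76), with an unadjusted p of 0.0184 and an adjusted p of 0.412 by limma, and it is reported as not called. Under scaling by library totals that step was 0.79, while the median of all rows moved to 0.34, and relative to the median it was 0.45, against 0.42 with the deposited scaling. The step was 0.26 if DM library 1 was left out and 0.59 if DM library 2 was.

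Mcl1, whose short-lived protein T cells require throughout their life, was read at 385 and 473 CPM in CM, 555 and 533 in DM, and 578 and 643 with methionine. Both CM libraries lay below all 4 others. The difference from CM was 0.35 in DM (95% interval 0.01 to 0.68, limma adjusted p = 0.14) and 0.51 in DM+Met (95% interval 0.18 to 0.85, adjusted p = 0.0462). The DM+Met call lay just under the threshold and was lost when any 1 of the 6 libraries was left out. The adjusted p was then 0.252 and 0.0729 without CM library 1 or 2, 0.0883 and 0.0888 without DM library 1 or 2, and 0.198 and 0.325 without DM+Met library 1 or 2, with log2 fold changes of 0.36 to 0.66. It held in 7 of 18 alternatives.

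Bcl2l1 gives rise to BCL-XL, the member that CD28 signals are known to induce. It was read at 39.2 and 53.8 CPM in CM, 36.0 and 32.1 in DM, and 43.9 and 48.3 with methionine. The DM pair lay below the other 4 libraries, and the DM+Met pair lay between the CM libraries. The difference was -0.42 in DM against CM (95% interval -0.997 to 0.15, limma adjusted p = 0.289) and 0.43 in DM+Met against DM (95% interval -0.15 to 1.001, adjusted p = 0.645). Neither passed the test.

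Among the effectors, Bak1 was read at 27.1 and 28.3 CPM in CM, 16.0 and 10.2 in DM, and 13.2 and 15.3 with methionine. The CM libraries were above all 4 dialyzed-medium libraries, with 116 to 238 reads behind each value. The log2 difference was -1.05 in DM (95% interval -1.88 to -0.23, limma adjusted p = 0.0791) and -0.92 in DM+Met (95% interval -1.75 to -0.09, adjusted p = 0.127), so the intervals of each comparison excluded 0 while the adjusted values missed the threshold. The difference was negative in all 18 alternatives of both comparisons and was called in none of them. Bax, the other effector, was read at 13 and 23.1 CPM in CM, 20.8 and 9.89 in DM, and 27.8 and 25.4 with methionine. Its DM+Met pair lay above the other 4 libraries, while CM and DM overlapped. The difference of DM+Met from DM was 0.84 (95% interval -0.14 to 1.81, adjusted p = 0.585), and from CM 0.59 (adjusted p = 0.408). Leaving out DM library 1 or 2 gave 1.34 or 0.34 for the first, and leaving out CM library 1 or 2 gave 0.20 or 0.98 for the second. Reads of Bax per read of Bak1, a ratio within a library that no scaling touches, were 0.479 and 0.814 in CM, 1.3 and 0.966 in DM, and 2.11 and 1.66 with methionine.

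Bcl2l11, which encodes BIM, was the BH3-only gene with the most reads. It was read at 151 and 130 CPM in CM, 136 and 101 in DM, and 127 and 127 with methionine, from 1012 to 1516 reads. Its log2 difference from CM was -0.25 in DM (95% interval -0.69 to 0.18) and -0.14 in DM+Met (95% interval -0.58 to 0.30), with limma adjusted p of 0.413 and 0.677. The first was -0.46 or -0.04 on leaving out DM library 1 or 2, and the second -0.03 or -0.25 on leaving out CM library 1 or 2. Under scaling by library totals the second value changed sign to 0.25, where the median of all rows was 0.41. Bbc3, which encodes PUMA, was read at 54.6 and 79.8 CPM in CM, 116 and 58.6 in DM, and 80.6 and 88.0 with methionine. The highest value and the second lowest of the gene were thus the 2 DM libraries, and the difference of DM from CM was 0.32 (95% interval -0.38 to 1.02). Without DM library 1 that value changed sign to -0.17.

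Pmaip1, Bid and Bad had fewer reads and wider intervals. Pmaip1, which encodes the MCL1-binding protein NOXA, was read at 6.27 and 15.2 CPM in CM, 4.39 and 13.1 in DM, and 4.19 and 6.22 with methionine, from 43 to 148 reads. Its DM+Met pair lay below both CM libraries, by little for DM+Met library 2, with a difference of -0.83 (95% interval -2.24 to 0.58, limma adjusted p = 0.423). That value was -1.41 without CM library 1 and -0.25 without CM library 2. Bid, which links death receptors to mitochondria, was read at 8.09 and 5.25 CPM in CM, 6.02 and 12.5 in DM, and 7.12 and 6.64 with methionine, with all 3 media overlapping. Bad, a target of growth factor signalling, was read at 19.1 and 25.6 CPM in CM, 43.8 and 21.1 in DM, and 25.2 and 33.8 with methionine, also with overlap. The half-width of the interval was 1.41 on the log2 scale for Pmaip1, the widest of the members, against 0.34 for Bcl2 and Mcl1.

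**Figure D2:**
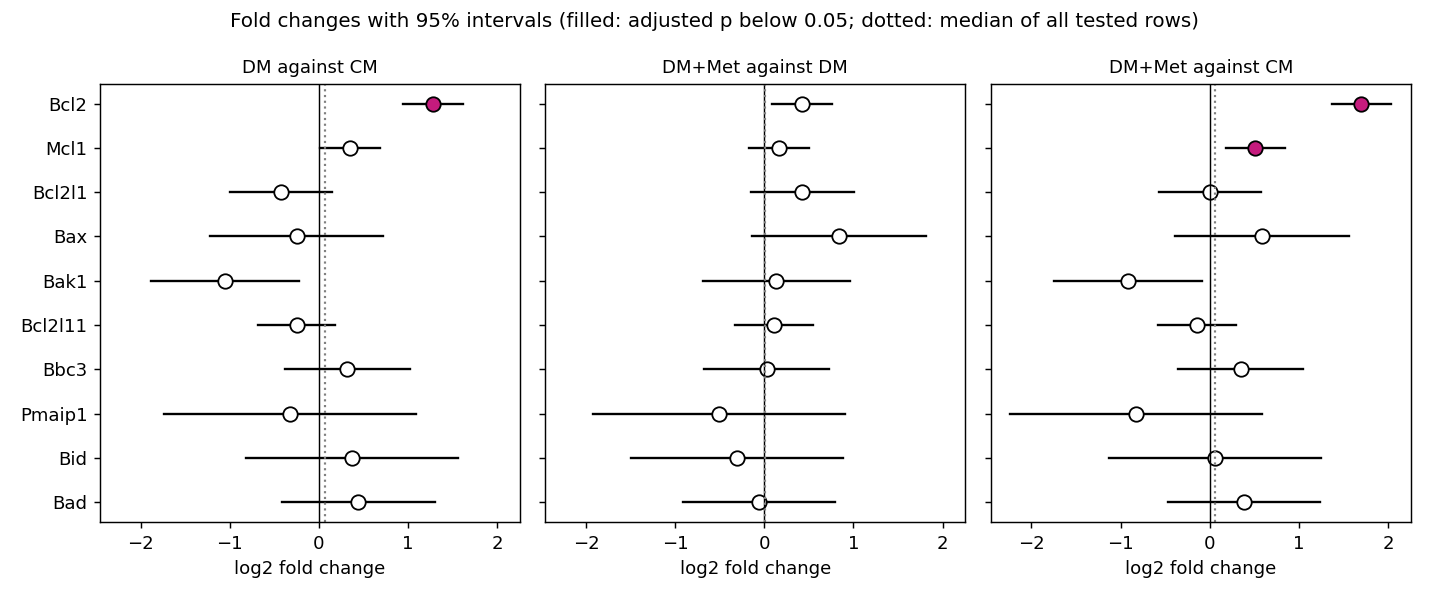
Log2 fold change of each BCL2 family gene (horizontal axis) in DM against CM, DM+Met against DM and DM+Met against CM, with 95% intervals from limma; filled points have an adjusted p below 0.05, and the dotted line is the median of all tested rows. Bcl2 is filled on the left and right at 1.28 and 1.70, Mcl1 on the right at 0.51, and no point is filled in the middle panel.

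Over the 10 members, the median log2 difference was 0.03 in DM against CM, 0.12 in DM+Met against DM and 0.21 in DM+Met against CM, beside 0.07, 0.01 and 0.06 over all tested rows. In DM against CM the libraries of the 2 media did not overlap for 4 of 10 members (Bcl2 and Mcl1 higher, Bcl2l1 and Bak1 lower), beside 54.1% of all rows, 27.9% higher and 26.2% lower. Between DM+Met and DM they did not overlap for 4 of 10, Bcl2, Mcl1, Bcl2l1 and Bax, all higher with methionine, beside 20.4% of all rows that were higher and 20.6% that were lower without overlap, 41% in all. With methionine against CM they did not overlap for 7 of 10, beside 60.9% of all rows: Bcl2, Mcl1, Bbc3 and Bax were higher, and Bcl2l11, Pmaip1 and Bak1 lower, where 32.2% of rows were higher and 28.7% lower. The 3 comparisons share libraries, so they are not independent of each other. At an unadjusted p under 0.05, Bcl2, Mcl1 and Bak1 passed in DM against CM and in DM+Met against CM, 3 of 10 beside 32.7% and 30.3% of rows.

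The libraries of a medium did not agree equally well on the members. The median absolute gap between library 1 and library 2 over the 10 members was 0.42 in CM, 0.77 in DM and 0.13 with methionine, beside 0.39, 0.47 and 0.26 over all tested rows. In DM, 5 members had a gap of at least 0.9, where 25.5% of rows did. Library 1 was higher by 0.97 for Bbc3, 1.002 for Bax and 1.02 for Bad, and library 2 by 1.39 for Pmaip1 and 0.95 for Bid. Pmaip1 also differed by 1.16 between the CM libraries. In DM+Met no member had a gap of 0.9 or more. For the remaining members the DM gap was 0.32 for Bcl2, 0.16 for Bcl2l1, 0.06 for Mcl1, 0.43 for Bcl2l11 and 0.60 for Bak1. The 5 genes above were picked by their gap, so no contrast between them and the rest is drawn. Bulk RNA gives 1 average per culture, in which fewer cells of a type and less RNA per cell cannot be told apart.

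Because pro-survival and death genes act against each other, reads of 1 gene were also divided by reads of another within a library, a description that does not depend on scaling and that carries no test. Since a 3′-end kit gives a read per transcript whatever its length, the ratio is one of reads, and only its change between media is described. Bcl2 reads per Bcl2l11 read were 2.77 and 3.65 in CM, 7.08 and 11.9 in DM, and 11.2 and 11.6 with methionine. All 4 dialyzed-medium libraries were above both CM libraries. Bcl2 reads per Bbc3 read were 7.67 and 5.93 in CM, 8.31 and 20.6 in DM, and 17.7 and 16.8 with methionine, where DM library 1 lay close to CM library 1. For Bcl2 reads per Bak1 read the values were 15.4 and 16.7 in CM, 60.3 and 118 in DM, and 109 and 96.5 with methionine. Mcl1 reads per Bcl2l11 read were 2.54 and 3.65 in CM, 4.07 and 5.26 in DM, and 4.55 and 5.06 with methionine. Bcl2l1 reads per Bcl2l11 read stayed between 0.259 and 0.415, with the media overlapping. Within the pro-survival genes, Bcl2 reads per Mcl1 read were 1.09 and 1.0 in CM, 1.74 and 2.27 in DM, and 2.47 and 2.29 with methionine, again without overlap with CM. All Bcl2 ratios share a numerator that was higher outside CM, so they largely restate the rise of Bcl2 and are not separate results.

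**Figure D3:**
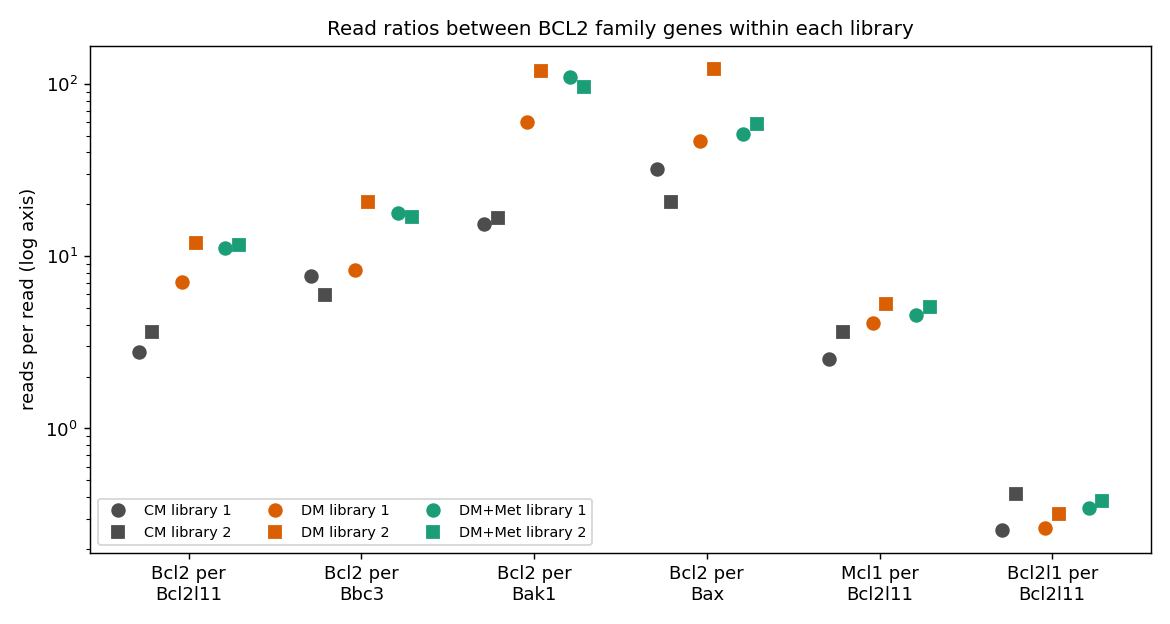
Reads of a pro-survival gene per read of a death gene within each library, on a log axis, coloured by medium, with circles for library 1 and squares for library 2. The 4 DM and DM+Met libraries lie above both CM libraries for the 4 Bcl2 ratios, which share a numerator and are not separate results. They also do for Mcl1 per Bcl2l11, while Bcl2l1 per Bcl2l11 overlaps between 0.259 and 0.415.

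The wider family was read next, from a list of 16 further BCL2 family genes of which 12 were tested. In DM against CM 2 were called higher and 1 lower, and in DM+Met against CM 3 higher and 2 lower, while none was called in DM+Met against DM. The called share was 25% and 41.7% in the comparisons with CM, beside 16.9% and 15.3% of all rows. List medians were 0.00, 0.02 and 0.21 in these comparisons, beside 0.07, 0.06 and 0.01 over all rows. The higher genes were copies of Bcl2a1, which encodes the NF-κB-induced pro-survival protein A1. Bcl2a1d rose by 1.11 in DM (limma adjusted p = 0.0161) and 1.44 in DM+Met (adjusted p = 0.00468), Bcl2a1b by 0.79 (adjusted p = 0.0438) and 1.09 (adjusted p = 0.012), and Bcl2a1a by 1.54 in DM+Met (adjusted p = 0.0128). These copies are nearly identical, so reads may be split between them and each is uncertain alone. Summed over Bcl2a1a to Bcl2a1d they gave 67.6 and 59.8 CPM in CM, 134 and 115 in DM, and 172 and 150 with methionine, with no overlap. Bnip3, a mitochondrial protein known for hypoxia response and mitophagy, fell by 1.12 in DM (adjusted p = 0.0032) and by 1.74 in DM+Met (adjusted p = 0.000271), from 2094 and 1772 reads in CM to 949 and 1318 in DM and 835 and 805 with methionine. Its relative Bnip3l fell by 0.76 in DM+Met (adjusted p = 0.0165). The DM call of Bcl2a1b was lost without any 1 of the 6 libraries, with the replicate block and in limma-voom, and the DM call of Bcl2a1d without any library but DM library 2. The DM+Met calls of Bcl2a1a and Bcl2a1b were lost without any CM or DM+Met library, that of Bcl2a1d without either DM+Met library, the DM call of Bnip3 without CM library 1, and the call of Bnip3l without any library but CM library 2. With 1 library left out, the calls in this list ranged from 0 to 2 in DM and from 1 to 4 in DM+Met. The low BH3-only genes Bmf and Bik had at most 35 and 24 reads in a library, and Bcl2a1c, Bcl2l10, Bok and Hrk had too few reads to be tested.

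In the list of the apoptosome, caspases and their inhibitors, which also holds outer membrane channels, every called gene was lower outside CM. Of 20 genes for the apoptosome, caspases and their inhibitors, 7 were called lower and 0 higher in DM against CM, and likewise 7 and 0 in DM+Met against CM (median -0.20 and -0.40, beside 0.07 and 0.06 over all rows). This was 35% of the list in each, beside 16.9% and 15.3% of all rows called and 9.07% and 8.36% called lower. None was called in DM+Met against DM (median -0.02). Birc5, which encodes survivin and is known above all for its role in cell division, fell by 3.54 in DM and 4.001 in DM+Met on the log2 scale (limma adjusted p = 0.00105 and 0.000386), with 951 and 1069 reads in CM and 55 to 152 elsewhere. Casp6, an executioner caspase, fell by 2.43 and 2.29 (adjusted p = 0.00182 and 0.00183). Vdac1 and Vdac2, channels of the outer membrane, fell by 1.33 and 0.85 in DM and by 1.62 and 1.03 in DM+Met. Cycs, the cytochrome c gene, fell by 1.12 in DM (adjusted p = 0.0144) and stood at -0.74 in DM+Met (adjusted p = 0.0721). Apaf1 and Casp9, which build the apoptosome, did not pass the test, at -0.42 and 0.88 in DM. The calls of Birc5 held in 18 of 18 alternatives. Those of Casp6 were lost without DM library 1 in DM and without either DM+Met library in DM+Met, and that of Cycs without any CM or DM library. In DM the call of Vdac1 was lost without any library but DM library 2 and that of Vdac2 without any but CM library 2, and in DM+Met both were lost without CM library 1 or either DM+Met library. With 1 library left out the list gave 2 to 4 calls in DM and 2 to 6 in DM+Met.

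The death receptor route, which meets the family at Bid, had 12 tested genes. In DM against CM 2 were called higher and 1 lower, and in DM+Met against CM 2 higher, with medians of 0.24 and 0.76. The called share was 25% and 16.7%, beside 16.9% and 15.3% of all rows. None was called in DM+Met against DM, with a median of 0.25. Tnf, a cytokine that activated T cells secrete, was read 88 and 66 times in CM, 595 and 538 times in DM, and 767 and 704 times with methionine, a rise of 2.42 in DM (limma adjusted p = 0.000746) and 2.62 in DM+Met (adjusted p = 0.000352). Fas, the receptor for FAS ligand, rose by 1.52 and 1.28 (adjusted p = 0.00224 and 0.00448), from 223 and 208 reads in CM to 731 to 836 in the other libraries. The Fas call in DM+Met was lost without either DM+Met library. Ripk3, a kinase of necroptosis, fell by 1.27 in DM (adjusted p = 0.0455), and this call was lost without any 1 of the 6 libraries. Casp8, the initiator that cleaves BID, stood at -0.19 in DM and 0.76 with methionine, each against CM, and was not called.

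The p53 list (16 tested genes) includes the members Bbc3, Pmaip1 and Bax, and none of these was called. Trp53 itself was at 0.42 in DM and 0.72 with methionine, each against CM (limma adjusted p = 0.34 and 0.114). In DM against CM 1 gene was called higher and 1 lower, in DM+Met against CM 0 and 2, and in DM+Met against DM none, with medians of -0.25, 0.07 and 0.06. The called share was 12.5% in both comparisons with CM, below the 16.9% and 15.3% of all rows. Cdkn1a, the cell cycle inhibitor p21, fell by 1.54 in DM (adjusted p = 0.000471) and by 0.79 in DM+Met (adjusted p = 0.0103), from 4209 and 4883 reads in CM to 1782 and 2177 in DM and 3705 and 3831 with methionine. Its DM+Met pair lay above the DM pair by 0.75, which was not called (adjusted p = 0.213). Eda2r, a death receptor of the TNF family, was called higher in DM (adjusted p = 0.035) on few reads, 0 and 0 in CM, 42 and 24 in DM, and 3 and 0 with methionine. Against a floor of 3 reads per CM library its mean in DM was at least 8.82-fold higher. Eda2r met the read filter only through its DM libraries, so its call and this fold are given as a description only. Perp, a membrane protein, fell by 2.33 in DM+Met (adjusted p = 0.0384), from 48 and 33 reads in CM to 4 and 0. Of the media compared, Perp met the read filter only in CM, and the same limit applies. The DM+Met call of Cdkn1a was lost without any library but CM library 1, the call of Eda2r without any but DM library 2, and the call of Perp without any CM or DM+Met library. With 1 library left out this list gave 1 to 3 calls in DM and 0 to 1 in DM+Met.

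Of 9 tested factors known to control BH3-only genes outside p53, 6 were called in DM against CM and 6 in DM+Met against CM (66.7%, beside 16.9% and 15.3% of all rows), 2 higher and 4 lower in each, and none in DM+Met against DM. List medians were -0.25, -0.68 and -0.02. Runx3 fell by 1.40 and 1.49 (limma adjusted p = 0.000457 and 0.000226) while Runx1, a related T cell factor, rose by 1.57 and 1.43 (adjusted p = 0.00192 and 0.00238). Myc, which drives growth after activation, rose by 1.66 and 1.54 (adjusted p = 0.0117 and 0.0158), and E2f1, a cell cycle factor, fell by 1.88 and 1.77 (adjusted p = 0.024 and 0.032). Jun fell by 1.61 and 0.90 (adjusted p = 0.00355 and 0.0426), and Atf4, a factor of the amino acid stress response, by 0.92 and 0.94 (adjusted p = 0.00593 and 0.00499). Foxo1, which is known to induce Bcl2l11, was read 1031 to 2046 times and stood at 0.07 in DM and 0.20 in DM+Met, not called. Both calls of E2f1 and the DM call of Myc were lost without any 1 of the 6 libraries and with only the compared media in the fit. The DM+Met calls of Myc and Jun were lost without any CM or DM+Met library, and the DM call of Jun without CM library 1. The DM+Met call of Runx1 was lost without either DM+Met library, and each call of Atf4 without CM library 2 or either library of the dialyzed medium compared. With 1 library left out the list gave 3 to 4 calls in DM and 1 to 5 in DM+Met.

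Receptors and kinases that are known to sustain Bcl2 and Mcl1 were mostly lower outside CM among the called genes. Of 15 tested, 1 was called higher and 4 lower in DM against CM, and again 1 and 4 in DM+Met against CM, while none was called in DM+Met against DM. The called share was 33.3% in both comparisons with CM, beside 16.9% and 15.3% of all rows. Medians were -0.29, -0.13 and 0.19. Pim2, a survival kinase, fell by 1.11 and 0.91 (limma adjusted p = 0.00326 and 0.0074), and Il2rb, the interleukin-2 receptor β chain, by 0.59 and 0.61 (adjusted p = 0.0161 and 0.0135). Stat5a, which carries the interleukin-2 and interleukin-7 signal, fell by 0.88 and 0.73 (adjusted p = 0.0174 and 0.0373). Il7r, the interleukin-7 receptor, fell by 0.72 in DM (adjusted p = 0.0145) and was at -0.36 in DM+Met (adjusted p = 0.16). Nfkb1 rose by 1.26 in DM (adjusted p = 0.0257), and Jak1 by 0.69 in DM+Met (adjusted p = 0.0284). Of the 15 genes, 6 stood above 0 in DM against CM, the called Nfkb1 among them, and 9 below. Any link of these genes to the level of Bcl2 was not tested. Both calls of Stat5a and the DM call of Il7r were lost without any 1 of the 6 libraries. The DM call of Il2rb was lost without any library but DM library 2 and that of Nfkb1 without any but CM library 1. The DM+Met calls of Il2rb and Jak1 were lost without any CM or DM+Met library, and that of Pim2 without CM library 2 or either DM+Met library. With 1 library left out the list gave 1 to 2 calls in DM and 0 to 4 in DM+Met. Of 4 tested genes of MCL1 protein turnover, Ube2c, a ubiquitin-conjugating enzyme of mitosis, fell by 3.68 in DM and fell by 4.43 in DM+Met (adjusted p = 0.000239 and 7.59e-05). Huwe1, a ubiquitin ligase of MCL1, rose by 0.74 and 0.73 (adjusted p = 0.0199 and 0.0214), and these calls of Huwe1 were lost without any 1 of the 6 libraries. The called share of this list was 50% in both comparisons with CM, beside the same 16.9% and 15.3% of all rows. Medians of the 4 were 0.38 in DM and 0.20 with methionine, each against CM, and -0.18 in DM+Met against DM, where none was called.

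**Figure D4:**
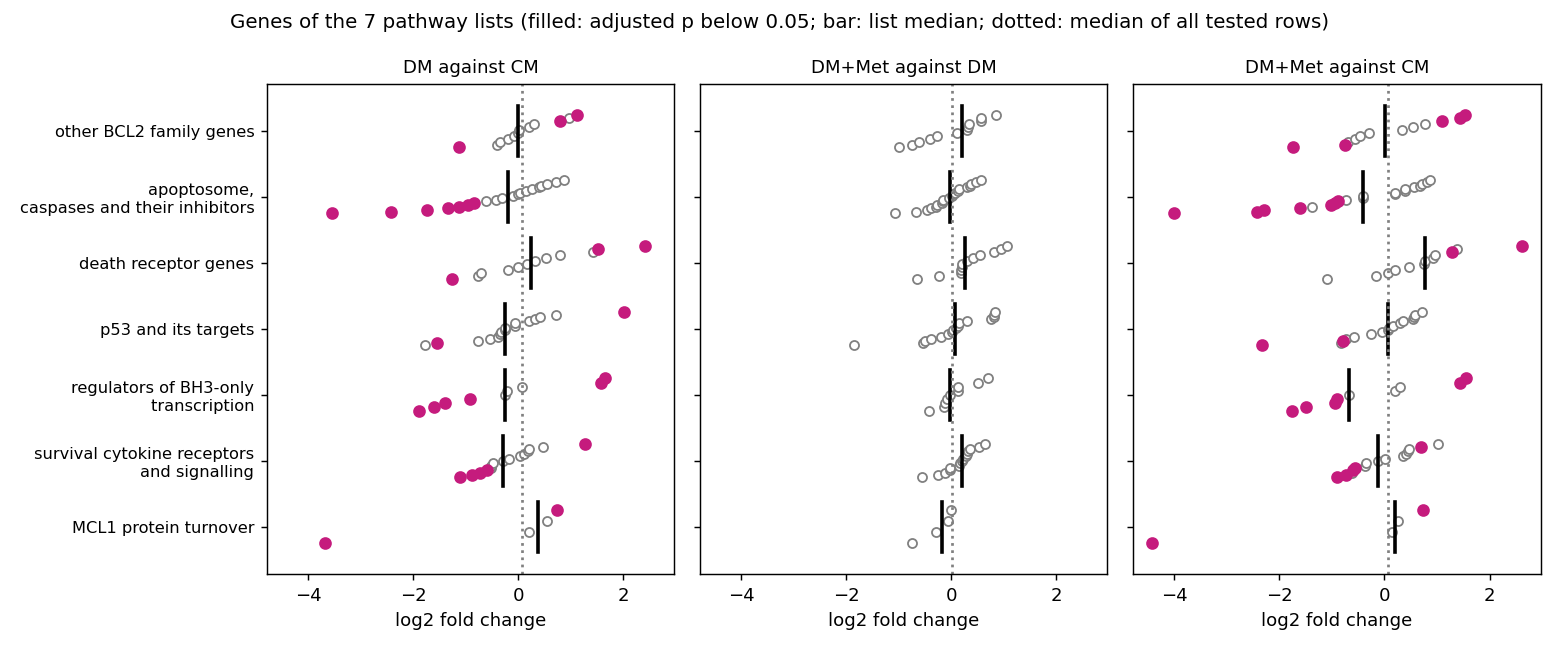
Log2 fold change (horizontal axis) of each tested gene of the 7 pathway lists in the 3 comparisons; filled points have an adjusted p below 0.05, black bars are list medians and the dotted line is the median of all tested rows. Called genes of the apoptosome and caspase list all lie to the left of 0 in both comparisons with CM, and the middle panel holds no filled point.

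Markers of other cells moved between media beside these results. The 8 CD8 T and NK markers summed to 120 to 134 CPM in CM, 47.3 to 48.1 in DM and 63.4 to 65.3 in DM+Met, and 2 of the 7 tested, Cd8a and Nkg7, were called lower than in CM in both dialyzed media. Other genes of that list differed in direction: Klrb1c had 0 reads in both CM libraries, 17 and 22 in DM and 45 and 34 with methionine and was called higher in DM+Met (limma adjusted p = 0.0294), and Klrk1 stood at 1.304 in DM and 1.64 in DM+Met, not called. Klrb1c met the read filter only through the dialyzed media, so its call is a description only. Against CM, the list's median was -0.22 in DM and 0.29 with methionine, with 3 and 4 of 7 above 0. The 7 B cell markers found summed to 209 in both CM libraries, 128 to 153 in DM and 146 to 180 in DM+Met, and 2 of 6 tested were called lower in DM. Ms4a1 went the other way, at 1.001 in DM and 1.09 in DM+Met, not called, while the other 5 were below 0 in both. The 9 myeloid markers summed to 29.7 to 41.5 CPM in CM, 114 to 154 in DM and 146 to 158 in DM+Met. In DM 2 of 9 were called higher, Mmp12 and Lyz2, and Mmp12 was also called in DM+Met. Mmp12 met the read filter only through the dialyzed media, so its calls, and the shares below that count them, are a description only. Tyrobp went the other way in DM, at -2.44 (adjusted p = 0.062), not called. Against CM, 8 of 9 were above 0 in DM and 6 with methionine. For CD8 T and NK, B cell and myeloid lists, the called share was 28.6%, 33.3% and 22.2% in DM, beside 16.9% of all rows. In DM+Met against CM it was 42.9%, 0% and 11.1%, beside 15.3%. Adgre1, Itgam, Tyrobp and Mmp12 of that list, Klrk1, Ncr1, Klrb1c and Eomes of the CD8 T and NK list, and Pax5 of the B cell list were at 0 in at least 1 library. Some of these genes are also known in activated T cells. The part of such cells, and of the share of Rn45s reads, in the values of Bcl2, Mcl1 and the pathway genes was not tested.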

How the data were processed

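RNA of mouse CD4 T cells in 3 media, 2 libraries a medium, was sequenced from 500 ng of total RNA per library with a 3′-end kit. Per the labels, reads were processed with Bowtie2 and bedtools on mm10 (versions, annotation and strand use are not given in the sources used here), and TMM and CPM are stated by the study. The deposited values are log2 of TMM-scaled CPM plus 1, with 3 decimals. Log base and offset were read from the values themselves, whose equal steps gave whole reads (within 0.1) for at least 99.776% of values up to 300 reads. A floor of 3 reads corresponded to 0.323 to 0.469 on the log2 scale, and floors cover counting error only. No pair of libraries agreed within sampling noise (chi-square per degree of freedom 18.2 to 35.9).

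The 3 media were fitted together on the log2 values with limma 3.58.1 in R 4.3.3 (intensity trend, no covariates, two-sided tests), over 12770 rows with at least 10 reads at the median depth in 2 libraries and 15 reads in all. P-values were Benjamini-Hochberg adjusted over these rows, with a threshold of 0.05. Fold changes on this scale understate changes of low genes. The scripts were tested on simulated data. The members and the gene lists were chosen with earlier results of these data known. All 10 members are named, and of each of 7 pathway lists up to 6 called genes, by lowest adjusted p, of which 1 is not reported here. Genes named beyond these (Apaf1, Casp9, Casp8, Trp53, Foxo1, Bmf and Bik) were chosen after their values were seen. Trac, Trbc2 and Ighm were not analysed here. Alternatives covered scaling, filters, pseudocounts, tests, the samples in the fit, a replicate block and the omission of each library. Ratios of reads were computed within libraries, without a test. Promoters and positions came from RefSeq (GRCm38.p6) and GENCODE vM21.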

Additional observations from a re-analysis of the deposited data

How the results depend on the processing

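Of the 540 member values under 18 alternatives, 506 kept their direction and their side of the threshold, 11 lost the call of Mcl1, 1 gained a call and 22 changed sign, all of the last with an adjusted p above the threshold. The number of members called in DM against CM was 2 in place of 1 with library totals without Rn45s, where Mcl1 passed (0.51, limma adjusted p = 0.0457). In DM+Met against CM it was 1 in place of 2 without a filter, with a pseudocount of 0.1, in limma without a trend, with only the 2 media compared, with the replicate block and without any 1 library (1 to 1), because the adjusted p of Mcl1 was 0.0955, 0.0604, 0.265, 0.0872, 0.061 and 0.0729 to 0.325. Library numbers did not pair the samples (deviations correlated at -0.025, -0.03 and 0.005), and the block changed no other member's call.

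Leaving out 1 library turned the sign of 13 uncalled member values. In DM against CM these ranged from -0.168 to 0.806 for Bbc3, -1.012 to 0.373 for Pmaip1, -0.752 to 0.25 for Bax, -0.103 to 0.845 for Bid and -0.066 to 0.952 for Bad, and the ends of each range were the fits that lacked either DM library. The omission of CM library 2 also turned Pmaip1 (0.26) and Bax (0.14). Between DM+Met and DM the ranges were -0.103 to 0.324 for Bcl2l11, -0.459 to 0.515 for Bbc3, -1.201 to 0.184 for Pmaip1, -0.164 to 0.433 for Bak1, -0.782 to 0.166 for Bid and -0.567 to 0.451 for Bad, again with the ends set by the DM libraries. Omitting DM+Met library 1 also turned Bad (0.148), and omitting library 2 turned Bbc3 (-0.034). For DM+Met and CM they were -0.22 to 0.228 for Bcl2l1 and -0.207 to 0.333 for Bid, with the ends set by the CM libraries, and the omission of DM+Met library 2 also turned Bcl2l1 (-0.064). Scaling by library totals turned Bid (0.016) and Bad (0.296) between DM+Met and DM and Bcl2l11 (0.252) between DM+Met and CM, and totals without Rn45s turned Bbc3 (-0.006) between DM+Met and DM. Of the 30 member values, 24 changed sign or moved by more than 1.5 times without at least 1 library. The 6 that did not were Bcl2 and Bak1 in both comparisons with CM, Mcl1 for DM+Met and CM, and Bcl2l1 between DM+Met and DM. The cause was not tested beyond the omission or scaling itself.

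Over all rows, library totals moved the median to 0.34 in DM+Met against DM and 0.41 in DM+Met against CM, with 76.3% of calls higher in place of 45.3%. Library totals without Rn45s gave 59.6% in place of 46.2% in DM against CM, and 57.4% in DM+Met against CM. Calls over all rows were 2154 in DM against CM, but 1329 without a trend, 795 with only the 2 media compared and 541 to 1061 without 1 library. For DM+Met and CM they were 1952, but 1265 without a filter, 944 without a trend and 268 to 1622 without 1 library. For DM+Met and DM they were 7, and 0 to 55 over the alternatives. Of 53 calls that the naming rule took from the pathway lists, 14 held in every alternative that tested the gene, and 38 were lost without at least 1 library; these alternatives were added after seeing the data. In limma without a trend, 28 of the 53 were lost. Scaling by library totals lost the DM+Met calls of Pim2, Il2rb, Stat5a, Bnip3l, Cdkn1a, Jun and E2f1 and the DM call of Ripk3. The losses named by gene above cover mainly the omission of a library. Where 1 library was left out, its medium's lone library was assumed to vary like the others. With 2 libraries a medium, low-count members are limited by spread and depth alike.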
